A study of Drosophila melanogaster with 13 samples.

Results

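The regions described here are 507 autosomal MSL3 peaks of MLEΔCBD-FLAG males, chosen by the absence of any overlapping MSL3 peak (at 1 bp or more) in the list of MLEWT-FLAG males. They made up 32.3% of the 1570 MSL3 peaks that the MLEΔCBD-FLAG list held on 2L, 2R, 3L, 3R and chromosome 4, and the whole list held 2301. They are called gained peaks below, the other 1063 autosomal peaks of the list are called kept, and the 839 autosomal peaks of the MLEWT-FLAG list with no counterpart are called lost. Gained means that no peak passed in the MLEWT-FLAG list, not that no signal was there, since coverage tracks were not used here. The study asked what the CLAMP-binding domain (CBD) of MLE does for the binding of the MSL proteins, and made chromatin immunoprecipitation libraries (ChIP-seq) for MSL1, MSL2 and MSL3 from whole adult males 2 to 3 days old. All males were y1w1118 and mle9/mle9, so that functional MLE came from a FLAG-tagged transgene at 86Fb on chromosome 3, driven everywhere by the ubiquitin-p63E promoter. MLEWT-FLAG males carried 1 copy of the intact transgene over the TM6 balancer (Ubi:mleWT/TM6), a rearranged chromosome 3, and MLEΔCBD-FLAG males carried 2 copies of the transgene lacking the CBD (Ubi:mleΔCBD/Ubi:mleΔCBD). The latter males were weak and short-lived, and copy number, balancer and CBD differ together between the lines. Each protein and line had 2 libraries, and 1 preimmune library, not analysed here, carried the MLEWT-FLAG label. The authors deposited 1 peak list per protein and line, with no replicate labels and no read counts, so depth is unknown here and no comparison between lines could be tested over samples. Ranges in parentheses beside a share are its 95% Wilson interval, which takes in the counting error of peaks and nothing else. In whole flies, strong binding in a subset of cells and weak binding in all cells cannot be told apart.

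The MSL complex raises transcription from the single X chromosome of male flies. MSL2, which is made in males only, and MSL1 form its core and bind high-affinity sites on the X, many of which carry GA-rich elements that the zinc-finger protein CLAMP recognises. MSL3 is the subunit with a chromodomain, and it is known for spreading of the complex into the bodies of active genes, which carry methylated lysine 36 of histone H3, with most binding toward the 3′ end. MLE is the RNA helicase that remodels the roX RNAs of the complex. Autosomal MSL3 peaks are therefore set below beside those features: gene bodies, MSL1 and MSL2 peaks, and GA repeats.

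Sequences at 5 of the gained peaks are printed first, since they show the range of places involved. They are an intergenic site, an intron, a summit beside a start, the end region of chromosome 4, and an intergenic site with the DRE. The DRE is the element bound by DREF at promoters of housekeeping genes. Each is 201 bases of the plus strand centred on the summit, from RefSeq Release 6 of the genome (dm6). Capitals mark exact matches, on either strand, to TATAAA, TGTGTGTG, the E-box CAGCTG or TATCGATA, the DRE.

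chr3L:8651987-8652187, the gained peak with the highest fold enrichment, intergenic and under an MSL1 peak: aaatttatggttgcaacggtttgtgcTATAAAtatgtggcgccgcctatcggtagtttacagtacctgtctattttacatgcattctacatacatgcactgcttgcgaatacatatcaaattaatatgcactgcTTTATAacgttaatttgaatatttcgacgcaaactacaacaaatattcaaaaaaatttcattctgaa

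chr2L:19915292-19915492, the strongest intronic one, in sick near TotE: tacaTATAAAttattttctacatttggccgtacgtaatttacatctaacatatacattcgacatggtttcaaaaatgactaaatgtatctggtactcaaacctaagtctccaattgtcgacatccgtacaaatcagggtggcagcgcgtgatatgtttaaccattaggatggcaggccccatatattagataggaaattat

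chr3R:12426078-12426278, a strong one at a start, that of Pp1-87B, a protein phosphatase gene (fold enrichment 4.13): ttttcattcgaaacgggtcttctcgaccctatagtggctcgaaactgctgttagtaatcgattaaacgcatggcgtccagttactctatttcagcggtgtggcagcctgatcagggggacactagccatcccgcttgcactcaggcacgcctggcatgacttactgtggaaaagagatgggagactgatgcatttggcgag

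chr4:1306500-1306700, the strongest under an MSL2 peak, in an annotated transposable element: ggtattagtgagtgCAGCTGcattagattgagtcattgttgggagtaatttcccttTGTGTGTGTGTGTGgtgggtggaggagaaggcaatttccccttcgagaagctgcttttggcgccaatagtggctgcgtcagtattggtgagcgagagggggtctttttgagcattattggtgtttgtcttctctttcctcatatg

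chr3R:29320119-29320319, an intergenic one with the DRE, its summit 575 bp from a start of Cnx99A, a calnexin gene (2.74): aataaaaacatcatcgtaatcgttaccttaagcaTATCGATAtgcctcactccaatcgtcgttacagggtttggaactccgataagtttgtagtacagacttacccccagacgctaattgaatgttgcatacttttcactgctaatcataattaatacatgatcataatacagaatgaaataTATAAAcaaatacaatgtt

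The first pair of sequences had GC contents of 32.8% and 35.8%, those beside Pp1-87B and on chromosome 4 had 51.2% and 47.3%, and the one beside Cnx99A had 33.3%. The TATAAA matches in the first pair lay away from any annotated start, by 2616 bp and 1876 bp from the summits. A match says only that these letters are present. The peak at Pp1-87B covered a start of that gene, but its summit lay 261 bp from it, so the start is outside the printed bases.

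Gained peaks were weak peaks of their list. Their median fold enrichment over background was 2.28 (interquartile range 2.10 to 2.62, highest 5.32), against 3.11 (2.22 to 5.58, highest 50.7) for kept peaks and 2.34 (2.16 to 2.63) for lost peaks of the MLEWT-FLAG list. Of the 200 autosomal peaks with the highest fold enrichment 0 were gained, and of the highest 500 it was 27. Split by fold enrichment into 5 groups of 314 peaks, the gained peaks numbered 1, 73, 146, 154 and 133 from the strongest group to the weakest. Because membership was decided by the MLEWT-FLAG list, these values describe the gained peaks and test nothing.

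The list gives each peak's values in the pair of peak sets that the reproducibility procedure (IDR) compared. It holds only peaks that passed this procedure, so presence in both sets was a condition of entry for gained and kept peaks alike, and similar values in both were favoured by it. Their median −log10 p was 16.2 in the first peak set and 16.4 in the second. The ratio of these values differed by over 2-fold at 0 of the 507 gained peaks, with a median absolute log2 ratio of 0.23, against 0.18 for kept peaks. The second set was higher at 271 of them. Summits of the pair of sets lay a median of 27 bp apart, against 14 bp for kept peaks, and the pair shared a median of 87.1% of their joint length. Whether the pair are the 2 replicates is not stated in the lists. Gained peaks under an MSL1 peak ran from 11.7 to 164 in the first set and those under an MSL2 peak from 13.7 to 164, almost the whole span of all gained peaks (10.4 to 164).

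**Figure D1:**
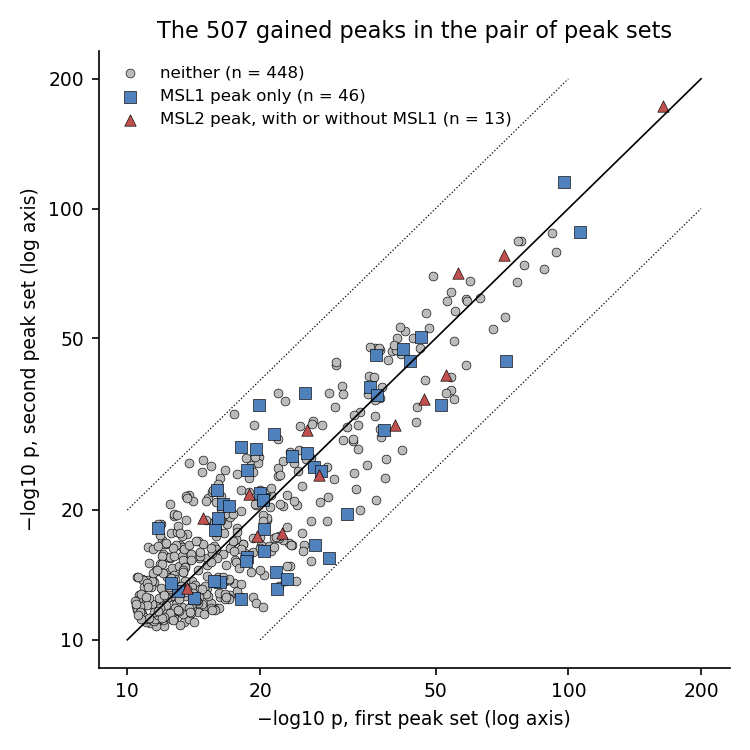
Each point is 1 of the 507 gained peaks, with its −log10 p in the first peak set (horizontal, log axis) and in the second (vertical, log axis). The solid line marks equality and the dotted lines a 2-fold difference, which 0 peaks passed. Squares mark peaks under an MSL1 peak only (46) and triangles those under an MSL2 peak (13).

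No gained peak lay closer than 225 bp to an MLEWT-FLAG peak. The nearest were at chr2L:490081-490327 (225 bp away, fold enrichment 3.28, in a 5′ UTR), chr2R:21011776-21012032 beside grau (229 bp, 2.01) and chr2L:2202095-2202934 beside CG31668 (241 bp, 2.03). The kept peaks with the fewest shared bases were at chr2L:3348370-3348583 in an intron, with E23 the nearest start (214 bp shared, 2.11), chr2R:19414460-19414677 beside tRNA:Ser-CGA-1-4 (218 bp, 2.06) and chr2R:11394232-11394451 beside tRNA:Thr-TGT-2-1 (220 bp, 2.53). These were short peaks covered over their whole length, so they do not mark the edge of the rule. Of the 1063 kept peaks, 26 shared under 50% of their length and 490 all of it. The median gap from a gained peak to the nearest MLEWT-FLAG peak was 19646 bp. The MLEWT-FLAG list held 1879 autosomal peaks over 110 Mb, and the gap for places drawn at random was not computed. Of the 507, 40 lay within 1000 bp of one, 180 within 10000 bp, 120 beyond 50000 bp and 56 beyond 100000 bp.

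The 4 large arms contributed similar shares, and chromosome 4 stood apart. Gained peaks were 101 of 300 on 2L (33.7%, 28.6 to 39.2%), 116 of 371 on 2R (31.3%, 26.8 to 36.2%), 128 of 379 on 3L (33.8%, 29.2 to 38.7%) and 145 of 497 on 3R (29.2%, 25.4 to 33.3%). Chromosome 3, which carries the transgene and the balancer, gave 31.2% and chromosome 2 gave 32.3%. On chromosome 4 it was 17 of 23 (73.9%, 53.5 to 87.5%), or 12.6 gained peaks per Mb against 4.30 to 4.59 per Mb on the 4 large arms. On the X, where MSL3 is most abundant, 31 of 687 MLEΔCBD-FLAG peaks (4.51%) had no MLEWT-FLAG counterpart.

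**Figure D2:**
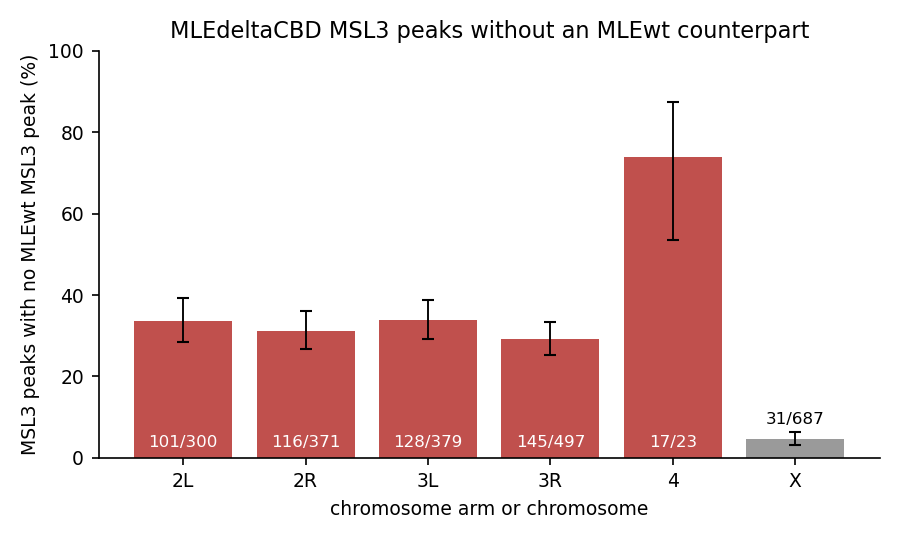
Bars give the share of MLEΔCBD-FLAG MSL3 peaks without an overlapping MLEWT-FLAG MSL3 peak on each chromosome arm or chromosome, with counts and 95% Wilson intervals. The 4 large arms sit between 29.2% and 33.8%, chromosome 4 at 73.9% and the X (grey) at 4.51%.

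The 17 gained peaks of chromosome 4, a small and largely heterochromatic chromosome whose genes are bound by the protein POF, fell into a few places. Near the right end, 3 lay in annotated transposable elements between positions 1305798 and 1307929. At chr4:1219786-1229483, 4 covered 81.6% of a 9.70-kb stretch with the end of Mitf, which encodes a lysosome-regulating transcription factor, and Dyrk3, a protein kinase gene. Another 4 lay between 309487 and 332035, with summits in coding exons of Rad23, Zip102B, PMCA (a plasma membrane calcium pump) and the overlap of PMCA and Rnf11. The rest included a peak at the start of pan, the TCF factor of Wnt signalling (fold enrichment 3.41), and exon peaks in lgs (2.01), which acts in the same pathway, and eIF4G1 (1.96).

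Summits of gained peaks lay mostly in coding exons or between genes. Of the 507, 219 lay in a coding exon (43.2%, 39.0 to 47.5%), 180 between genes (35.5%, 31.5 to 39.8%), 57 in introns (11.2%), 33 in 5′ UTRs (6.51%) and 13 in 3′ UTRs (2.56%). Kept peaks had 26.7% in coding exons (24.1 to 29.5%) and 16.5% in introns, and lost peaks 57.0% in coding exons and 8.34% between genes. Coding exons make up 16.8% of autosomal bases, introns 41.8% and intergenic DNA 31.6%. The last value lies inside the interval of the gained intergenic share. Fewer gained than kept peaks lay at a transcription start. Of the gained peaks, 192 came within 200 bp of one (37.9%, 33.8 to 42.2%), against 55.1% of kept peaks (52.1 to 58.1%). Over all autosomal peaks of the list it was 49.6%. Lost peaks were close to gained ones, at 39.5% (36.2 to 42.8%). The summits of the 304 gained peaks lying in exactly 1 coding gene sat at a median of 66.1% of the way from its start to its end, against 51.1% for kept peaks. Of the 304, 192 (63.2%, 57.6 to 68.4%) were nearer the 3′ end than the start. That share was 50.8% for kept peaks, 55.6% for lost peaks (52.0 to 59.2%, overlapping the gained interval) and 68.2% for X peaks of the list. The genes of the 304 gained peaks had a median length of 14851 bp, against 9763 bp for kept peaks.

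**Figure D3:**
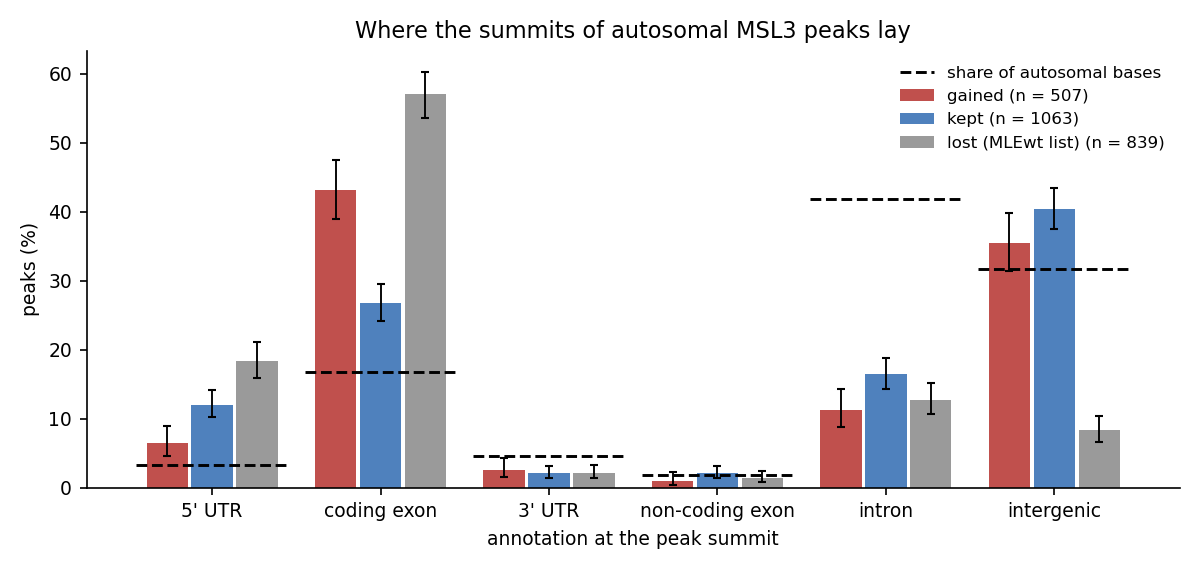
Bars give the share of gained, kept and lost autosomal MSL3 peaks by the annotation at the summit, with 95% Wilson intervals, and dashed lines the share of autosomal bases. Coding exons hold 43.2% of gained, 26.7% of kept and 57.0% of lost peaks, and intergenic DNA 35.5%, 40.5% and 8.34%.

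The place and base composition of the gained peaks differed with their width. Their median width was 536 bp (324 to 1020.5), close to the 561 bp of kept peaks. Of the 188 gained peaks up to 400 bp wide, 61.2% had an intergenic summit (54.0 to 67.8%) and 10.6% a coding-exon summit, with a median GC content of 42.3% in the 201 bp around the summit. Of the 131 over 1000 bp wide, 80.9% had a coding-exon summit (73.3 to 86.7%) and 9.92% an intergenic one, with a median GC content of 59.2%. The 188 between these widths were mixed, with 49.5% coding-exon and 27.7% intergenic summits and a median GC content of 55.2%. The narrow group had the higher median fold enrichment, 2.48 against 2.19 for the wide group. Kept peaks were ordered alike at both ends: up to 400 bp, 50.3% had an intergenic and 4.90% a coding-exon summit, with a median fold enrichment of 2.97, and over 1000 bp, 20.0% and 64.9% (58.7 to 70.6%), with 2.30. GC content moves with these classes as it does with exons in general (autosomes as a whole are 42.1% GC), and its part in peak calling was not tested.

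**Figure D4:**
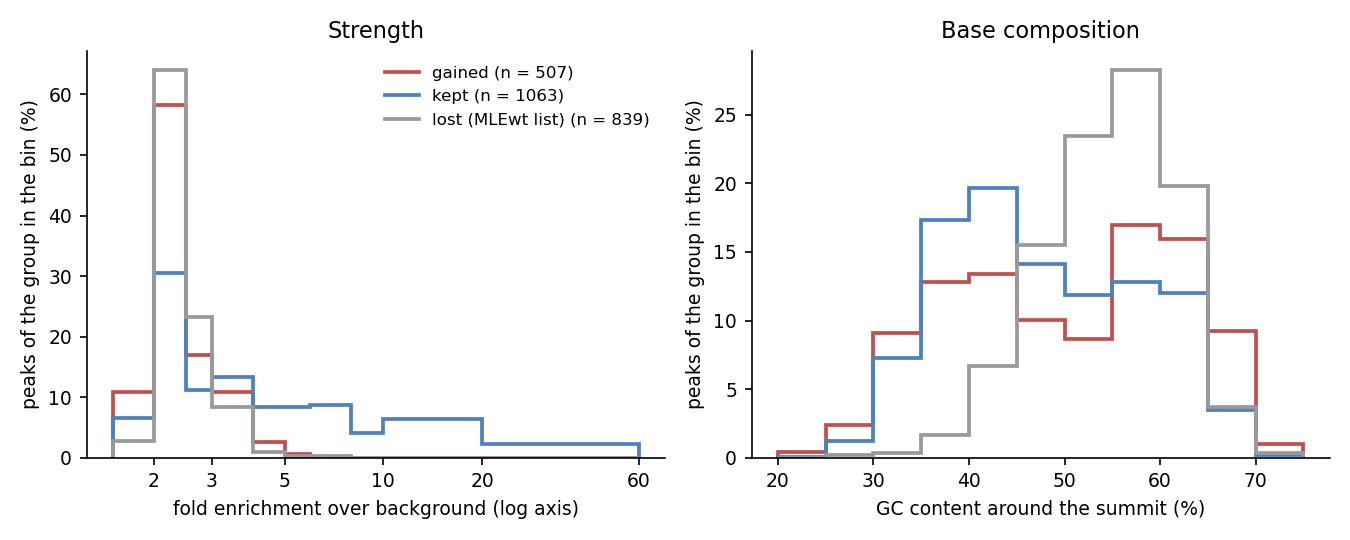
Left, the share of gained, kept and lost autosomal MSL3 peaks in bins of fold enrichment over background (log axis), and right, in bins of GC content of the 201 bp around the summit. Gained peaks have a median fold enrichment of 2.28 and a median GC content of 51.2%, while kept peaks have medians of 3.11 and 46.3%.

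At the same strength, differences in location changed in part. Among peaks with a fold enrichment of 2 to 3, 39.4% of 381 gained peaks (34.6 to 44.4%) and 46.0% of 443 kept peaks (41.5 to 50.7%) lay at a start, so that these intervals overlapped. Coding exons held 46.5% and 49.0% of them, and the order of the median GC contents turned, to 53.7% for gained and 55.7% for kept peaks. Intergenic summits were then more frequent among gained peaks, at 32.5% (28.0 to 37.4%) against 16.3% (13.1 to 20.0%), although over all peaks they were 35.5% against 40.5%. Intergenic DNA is 31.6% of autosomal bases, so at this strength the gained share was near it and the kept share below it. The same band held 381 of the 507 gained peaks but 443 of the 1063 kept ones.

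The gained peaks touched the body or the 200 bp beside it of 538 annotated genes, 507 of them protein-coding by coincidence with the number of peaks, out of 11749 autosomal coding genes (4.32%). Kept peaks touched 1121 coding genes and lost peaks 832. Of the 507 coding genes, 382 had only gained peaks, and 65 had both gained and lost ones. Where the summit lay in a coding gene (320 peaks), the gene held an MLEWT-FLAG MSL3 peak elsewhere in 89 cases (27.8%). Most gained peaks in genes were thus in genes with no MSL3 peak in the MLEWT-FLAG list, and the rule itself barred one at the gained peak. Most of the 11749 autosomal coding genes were likewise touched by neither kept (1121) nor lost peaks (832). Whether the genes of gained peaks differ from the rest in this was not tested. The share of all coding genes with an MLEWT-FLAG peak was not computed.

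Several members lay in the same gene at 10 genes. The gene dpy (dumpy), which encodes a giant extracellular matrix protein of epithelia, held 9 gained peaks along its 137 kb on 2L (chr2L:4477462-4614300), all with summits in coding exons, 1369 to 4016 bp wide, and with 0 kept and 0 lost peaks. Their fold enrichments were 1.95 to 2.24, below the median of all gained peaks, and their GC contents 55.2 to 61.2%. Of these, 7 formed a run that covered 37.5% of chr2L:4483720-4530289. Rim (FBgn0053547) and brp (FBgn0259246), which encode proteins of the presynaptic active zone, held 3 each in coding exons, with fold enrichments of 2.06 to 2.54 and 2.00 to 2.28, and brp also had 1 kept peak. Edc3, which encodes an mRNA decapping factor, held 3 along its 4.53 kb, with fold enrichments of 2.60, 2.18 and 2.13. The gene smash held 4, of which the intronic one at chr3R:4705216-4705527 was the narrowest (312 bp), the strongest (3.20) and the 1 under an MSL1 peak. The others were GluClalpha with 4, and CG41378, Mitf, esn and mle with 3 each.

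The run with the most gained peaks was on 3L. At chr3L:15970355-16007723, 8 lay within 37.4 kb, with summits in brm, which encodes the ATPase of the Brahma chromatin remodelling complex, of Hip14, which encodes a palmitoyltransferase, and of hzg, mib1 and PolD1. Fold enrichments were 3.43 and 3.00 at Hip14, 2.37 and 2.17 at brm and 2.04 to 2.44 at the others. The stretch also held 2 MLEWT-FLAG peaks, 1 of them kept. With neighbours counted up to 20 kb away, 332 gained peaks had none and 71 lay in 18 runs of 3 or more. The same counts for kept peaks or for places drawn at random were not computed.

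The mle gene itself held 3 gained peaks and 0 kept or lost ones. They lay at chr2R:5980064-5980509 (fold enrichment 2.83, −log10 p of 36.5 and 35.9 in the pair of peak sets), chr2R:5978023-5978660 (2.59, 35.0 and 25.5) and chr2R:5975445-5977375 (2.00, 19.4 and 26.6). All 3 summits were in coding exons. MLEΔCBD-FLAG males carry 2 copies of the mle transgene and MLEWT-FLAG males 1, so DNA copy number and binding cannot be told apart at this gene. The genes msl-1, msl-2 and msl-3 held 0 gained peaks, as did Clamp and Ubi-p63E, whose promoter drives the transgene, and the last pair held 1 kept peak each.

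The strongest gained peaks were narrow. The 12 with the highest fold enrichment were 300 to 720 bp wide, and their fold enrichments ran from 5.32 to 4.26. The first, chr3L:8651975-8652466, lay 2504 bp from the nearest start, that of Pex7, which encodes a peroxisomal import receptor, with −log10 p of 106 and 88.2 in the pair of sets. The second, chr3L:13845320-13845725 (5.06, −log10 p of 97.9 and 116), lay 329 bp from a start of Hml, which encodes hemolectin of blood cells. Both were under an MSL1 peak. Of the others, peaks in introns of CG43980 (4.87), mtd (4.37), TfAP-2 (4.26), which encodes an AP-2 transcription factor, and tun beside CG33465 (4.79), and the intergenic one nearest Neu2 (4.80), had no MSL1 peak. The peak at the start of nudC, which encodes a dynein regulator, had one (4.26), and the peak at the start of CG30428, 33535 bp from the end of 2R, had none (4.83). The remaining ones were those in sick and on chromosome 4.

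The 5 widest gained peaks were 4668 to 5609 bp long, and 4 of them had a coding-exon summit. At chr3R:26858878-26864486, 5609 bp covered the start of Lerp, which encodes a receptor of lysosomal enzymes, and IntS12, which encodes an Integrator subunit, with a fold enrichment of 3.49. The next were in Set1 (5475 bp, 2.64), which encodes a histone H3 lysine methyltransferase, tou (5260 bp, 3.38), Oseg2 (5211 bp, 2.24), which encodes an intraflagellar transport protein, and pros (4668 bp, 2.77), which encodes the Prospero transcription factor. The peak in tou lay 765 bp from an MLEWT-FLAG peak, and the others lay 16767 bp or more from one.

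MSL1, assayed with another antibody in other libraries, had a peak at 55 of the 507 gained MSL3 peaks in MLEΔCBD-FLAG males (10.8%, 8.43 to 13.9%), against 195 of 1063 kept peaks (18.3%, 16.1 to 20.8%) and 15.9% of all autosomal peaks of the list. In the MSL1 list of MLEWT-FLAG males 1 gained peak had one, in tn, and 39 kept peaks did. At a fold enrichment of 2 to 3 the order turned: 10.5% of gained peaks (7.81 to 14.0%) and 4.74% of kept peaks (3.12 to 7.14%) had an MLEΔCBD-FLAG MSL1 peak. The overlapping MSL1 peaks numbered 54, and all 54 had no counterpart in the MSL1 list of MLEWT-FLAG males, which was the case for 337 of the 377 autosomal MSL1 peaks. Of those 337, 156 lay at a kept MSL3 peak and 127 at no autosomal MSL3 peak.

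**Figure D5:**
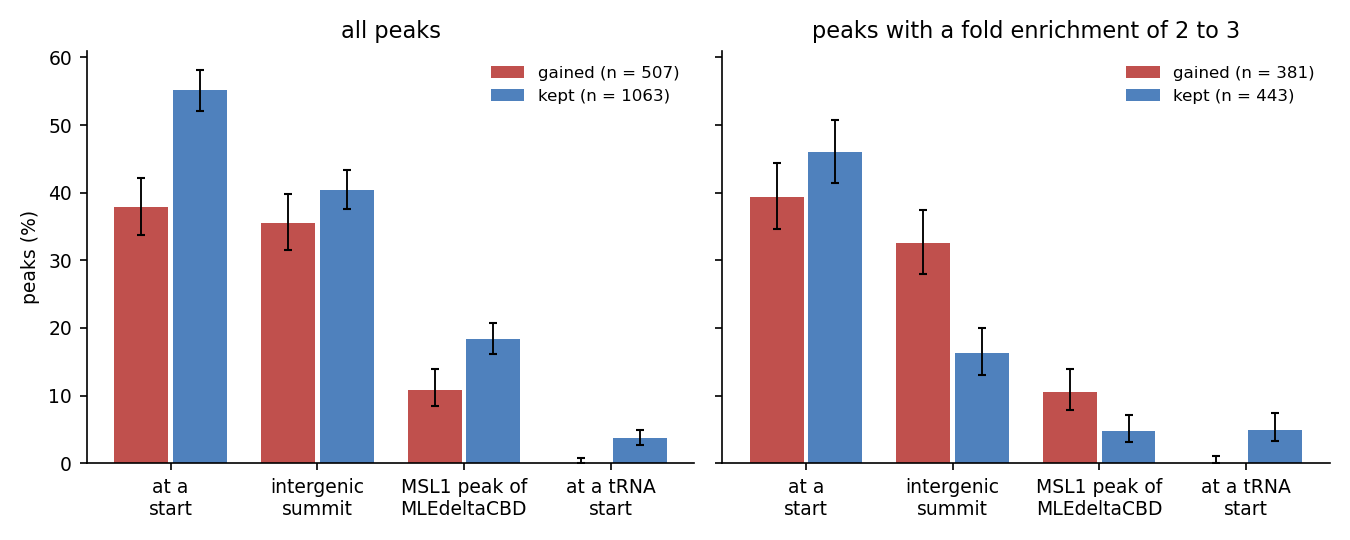
Bars give shares of gained and kept autosomal MSL3 peaks at a start, with an intergenic summit, under an MLEΔCBD-FLAG MSL1 peak and at a tRNA start, with 95% Wilson intervals, for all peaks (left) and for peaks with a fold enrichment of 2 to 3 (right). MSL1 overlap is 10.8% against 18.3% on the left and 10.5% against 4.74% on the right.

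Gained peaks with MSL1 were narrower and closer to starts than those without. Their median width was 378 bp against 580.5 bp, their median fold enrichment 2.55 against 2.24, and 35 of 55 lay at a start (63.6%) against 157 of 452 (34.7%). Kept peaks with MSL1 were also more often at a start than those without (79.0% against 49.8%) and stronger (6.14 against 2.73). Their median widths were close, at 559 and 562.5 bp. The strongest MSL1 peak at a gained peak lay at the divergent starts of Diap2, which encodes an inhibitor of apoptosis, and bug (chr2R:15934457-15934936). It had an MSL1 fold enrichment of 10.0 and an MSL3 fold enrichment of 3.07. At chr2L:10964547-10964785, 394 bp from a start of dpr2, which encodes a cell surface immunoglobulin protein, MSL1 had 9.01 and MSL3 2.15. The peak beside Hml had 7.14 for MSL1 and the first peak of the list, beside Pex7, 5.19. A peak at chr2R:24857291-24857503 had 6.09, a peak at the start of CG13088 had 4.95, and chromosome 4 supplied 2 with 5.24 and 5.15. Fold enrichments of MSL1 and MSL3 come from different libraries, so their sizes are not compared.

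MSL2 had a peak at 13 gained peaks in MLEΔCBD-FLAG males (2.56%, 1.50 to 4.34%) and at 0 of 1063 kept peaks (upper Wilson limit 0.360%), with 0.828% over all autosomal peaks. These 13 held 16 of the 23 autosomal MSL2 peaks of that list, and the other 7 lay at no autosomal MSL3 peak. In the MSL2 list of MLEWT-FLAG males the autosomes held 4 peaks, and 0 overlapped a gained MSL3 peak. The 13 fell in 7 places and are not independent of each other. On chromosome 4, 3 adjacent ones at positions 1305798 to 1307929, 40202 bp or more from the end, had MSL3 fold enrichments of 5.03, 4.36 and 3.53, MSL1 fold enrichments of 4.61 to 5.24 and MSL2 fold enrichments of 3.11 to 3.53. At the end of 2R, 714 bp from the last base, the peak at chr2R:25285488-25286222 had 4.11 for MSL3, 3.05 for MSL1 and 3.75 for MSL2.

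The other 9 were on 3R. In GluClalpha, which encodes a glutamate-gated chloride channel, 3 intronic gained peaks between positions 19743024 and 19751573 had MSL2 fold enrichments of 3.05, 2.63 and 2.37 and MSL3 fold enrichments of 2.19, 2.57 and 2.47. At Lerp and IntS12, the widest gained peak and its neighbour at chr3R:26857966-26858629 had MSL2 fold enrichments of 2.88 and 2.40. At chr3R:21887226-21889423, the starts of CG6678 and dnd and the adjoining exon held 2, with 2.46 and 2.45. The last pair were at the start of Ugt303B3, which encodes a UDP-glycosyltransferase (2.87), and in a coding exon of CG34347 (2.31). Of the 13, 9 also had an MSL1 peak.

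GA repeats, the core of high-affinity sites on the X, were at few gained peaks, with an interval that took in their share of autosomal windows. GAGAGAGA (or TCTCTCTC) lay within 100 bp of the summit at 4 of 507 (0.789%, 0.307 to 2.01%), against 2.73% of kept peaks (1.91 to 3.89%), 3.93% of lost peaks (2.81 to 5.47%), 2.91% of the X peaks of the list, 1.04% of all autosomal 201-bp windows and 1.93% of windows around autosomal starts. The 4 were at starts of Src64B, a Src-family kinase gene, of tau, of jeb, which encodes a secreted ligand, and of brat, a translational repressor gene, with fold enrichments of 1.89 to 2.20. Among peaks at a start, 2.08% of gained (0.813 to 5.23%) and 3.41% of kept ones (2.22 to 5.21%) had the repeat, with overlapping intervals. Of the 55 gained peaks under MSL1 and the 13 under MSL2, 0 had the repeat. TGTGTGTG was at 2.17% of gained, 3.86% of kept and 5.96% of lost peaks, and at 3.74% of windows.

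Among promoter elements, the DRE had overlapping intervals in gained and kept peaks. TATCGATA, the DRE, was at 18 gained peaks (3.55%, 2.26 to 5.54%), 3.95% of kept (2.94 to 5.30%) and 0.119% of lost peaks, and 0.534% of windows, and 16 of the 18 were among the 192 at a start (8.33%, 5.19 to 13.1%, against 6.83% of kept peaks at a start and 4.93% of autosomal starts). GGTCACAC, the core of a housekeeping promoter motif, was at 2.96% of gained, 4.70% of kept and 0.715% of lost peaks (0.418% of windows, 4.68% of starts). TATAAA was at 11.8% of gained and 11.9% of kept peaks, below the 22.0% of windows, and at a fold enrichment of 2 to 3 it was at 10.2% of gained (7.58 to 13.7%) and 6.32% of kept peaks (4.41 to 8.98%). CGATA, which is contained in TATCGATA, was at 29.8% of gained and 28.9% of kept peaks (21.2% of windows, 33.8% of starts). The E-box CAGCTG was at 14.4% and 13.2% (8.36% of windows, 12.5% of starts). CAGGTAG, the motif of the early factor Zelda, was at 2.17% of gained (1.22 to 3.84%), 0.753% of kept (0.382 to 1.48%) and 1.91% of lost peaks. The gained and kept intervals overlapped, and CAGGTAG was at 1.11% of windows and 1.05% of starts. Lost peaks had fewer DRE and GGTCACAC matches than gained ones, with intervals that did not overlap (0.0210 to 0.672% for the DRE and 0.328 to 1.55% for GGTCACAC in lost peaks).

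By class of gene at the start, tRNA genes differed between gained and kept peaks. tRNA genes, transcribed by RNA polymerase III, had a start at 0 of the 507 gained peaks (upper Wilson limit 0.752%), at 39 of 1063 kept peaks (3.67%, 2.70 to 4.98%) and at 29 of 839 lost peaks (3.46%). It was 2.48% over all autosomal peaks of the list. At a fold enrichment of 2 to 3 this was 0 of 381 gained peaks and 22 of 443 kept peaks (4.97%). Protein-coding starts made up nearly all of the gained peaks at starts (184), with 12 at non-coding RNA and 5 at snoRNA starts, a peak being counted for each class it touched.

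Gene lists were read against the 4.32% of autosomal coding genes with a gained peak. Cytosolic ribosomal protein genes had one at 6 of 78 (7.69%), kept peaks at 19 and lost peaks at 14. The gained ones included RpL26 (fold enrichment 3.20), RpS4 (2.96, with MSL1) and RpL32 (2.64, with MSL1) at their starts, and RpS7 (1.93) in its body. Oxidative phosphorylation genes had one at 3 of 76 (3.95%), with ND-B14.5B, a complex I subunit gene, at 3.36 and RFeSP, the Rieske protein gene of complex III, at 3.22. Proteasome genes had one at 2 of 42 (4.76%), Prosalpha5 (2.41) and Rpn1 (2.04). Ecdysone response genes had one at 2 of 11, the ecdysone receptor gene EcR (2.54, in its 3′ UTR) and ftz-f1 (1.93), where 5 had kept and 9 had lost peaks. Testis genes had one at 3 of 24: bol (1.82) and the paired genes Mst98Ca (2.20) and Mst98Cb (2.51), whose sequences are similar enough that reads could be shared between them. Photoreceptor and synapse genes (brp, 1 of 19, 5.26%), sarcomere genes (Mlc1, 1 of 23, 4.35%), digestive enzyme genes (2 of 44, 4.55%) and stress and metabolic response genes (Jra, 1 of 27, 3.70%) were near the share over all coding genes. Of 9 autosomal dosage compensation factor genes 1 had one (mle), and of 7 NSL complex genes 1 (nsl1, 2.14). Of snRNA and snoRNA genes 5 of 257 had one. Heat shock (19), histone (111), antimicrobial peptide (21) and seminal fluid genes (51) and tRNA genes (269) had 0. Of these, heat shock genes had kept peaks at 9 and tRNA genes at 59, while histone, antimicrobial peptide and seminal fluid genes had none in any class. Most lists are small and leave wide margins, and differences between them were not tested. The share of 4.32% covers coding genes only, so it is no reference for the tRNA, snRNA and snoRNA genes. The tRNA genes, with 0 of 269, had lost peaks at 43, in the same direction as the counts of tRNA starts above.

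Repeats and chromosome ends held a small group of gained peaks. Summits lay in an annotated transposable element at 10 of 507 (1.97%, 1.07 to 3.59%), against 1 of 1063 kept peaks (0.0941%, 0.0166 to 0.531%) and 1 of 839 lost peaks, with 6.02% of autosomal bases in such elements. Of the 10, 3 were the chromosome 4 peaks under MSL2 and 1 was the chromosome 4 peak beside Mitf (2.85), and the other 6 had fold enrichments of 2.14 to 2.59. Within 100 kb of an arm end lay 7 gained (1.38%, 0.670 to 2.82%), 2 kept (0.188%, 0.0516 to 0.683%) and 0 lost peaks. Over all autosomal peaks of the list it was 0.573%, and the share of bases this near an end was not computed. The 7 included the 3 adjacent chromosome 4 peaks, which are 1 place. Another was the peak at the start of l(2)gl, the tumour suppressor gene at the tip of 2L (chr2L:18636-19113, 2.57). Reads from other copies of a repeat could be placed at the peaks in repeats and near chromosome ends, which was not tested.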

How the data were processed

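Per the labels and the study's methods, cutadapt was used for trimming, Bowtie2 for mapping to dm6 and MACS2 for peak calling, followed by the IDR procedure for reproducibility. Picard and deepTools are also named. The deposited lists give each peak's fold enrichment over the MACS2 background (a ratio). They also give its −log10 p and −log10 q as the authors' peak caller wrote them, the −log10 p in each of the pair of peak sets compared, and a score, the −log10 of the IDR. Library depths are not given in the lists. The 6 lists held 6400 peaks, and 0 columns of unmapped samples were left aside.

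A peak was gained where no MLEWT-FLAG peak of the same protein shared 1 bp with it, kept otherwise, and lost in the reverse comparison. Peaks were placed on the Ensembl 115 annotation (BDGP6.54, same sequence as dm6), with transposable elements left out of the genes, and motifs were searched on both strands within 100 bp of the summit. A peak was at a start when it came within 200 bp of an annotated transcript's first base. Python 3.11.15, numpy 2.4.6, pandas 2.3.3 and matplotlib 3.10.9 were used, and the functions were tested on simulated data. With 1 list per protein and line there was no test over samples. Alternatives were other overlap rules, thresholds, start windows and repeat definitions.

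The members and lists were chosen with earlier results of these data known. Named peaks were the 12 of highest fold enrichment, the 5 widest, the 8 with the strongest MSL1 peak and those under MSL2. Also named were the 3 gained peaks nearest to an MLEWT-FLAG peak and the 3 kept peaks with the fewest shared bases. The rest were those in genes with 3 or more or in the runs with the most members, those in the gene lists, and those at mle, msl-1, msl-2, msl-3, Clamp and Ubi-p63E. The genes with a GA repeat, the remaining chromosome 4 peaks, those in transposable elements, and the peaks at tn and l(2)gl were named after their values were seen.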

Additional observations from a re-analysis of the deposited data

Results flagged for a closer look

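Sequences outside the autosomes and the X, which no comparison above used, held more MSL3 peaks in MLEΔCBD-FLAG than in MLEWT-FLAG males. There were 44 in the MLEΔCBD-FLAG list, 38 of them with no overlapping MLEWT-FLAG peak, and 6 in the MLEWT-FLAG list. The Y chromosome held 19 (17 without a counterpart, median fold enrichment 2.44, highest 3.91) against 2, sequence assigned to the X but not placed held 6 against 0 (median 3.20), and sequence with no assignment held 19 (15 without a counterpart, median 3.06, highest 6.11) against 4. These sequences are rich in repeats, and where their reads came from was not tested.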

How the results depend on the processing

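The number of gained peaks stayed between 467 and 628 under 8 other definitions. These ran from a summit distance of 250 bp (623) and a gap of 1000 bp (467) to lists of equal length (628) and rows within 500 bp merged in both lists (478). Those asking for a −log10 q of 3 or a global IDR of 0.01 left it at 507. They could not change it, since the autosomal peaks already met them (lowest −log10 q 8.33, lowest −log10 IDR 2.00). The number moved to 258 where the global IDR had to reach 0.001, which was chosen after seeing the data. In those 258, the share at a start was 46.9% (kept 63.6%), the share under MSL1 was 17.1% (kept 23.1%), the median fold enrichment was 2.60 and the median width 410.5 bp. The share at a start moved to 56.8% with a window of 1000 bp (kept 69.2%) and to 25.8% with the summit in place of the peak (kept 42.3%), in each case below that of kept peaks. The GA repeat was found at 2.96% within 250 bp of the summit (kept 4.61%), at 4.73% with 3 GA units (kept 8.37%) and at 0.197% with 5 units. The mean fold enrichment was 2.47. The other 18 of 29 alternatives left the number within 1.5 times and each share or median inside its 95% interval. Among these 18, the settings of a −log10 q of 3 and an IDR of 0.01 could not move any result, as stated above for the number. No paired analysis was possible because each list pools its libraries and carries no replicate columns, and for the same reason no library could be left out. Without coverage, a peak just under the threshold in MLEWT-FLAG males and a place with no signal there cannot be told apart, which bears most on the weak peaks that make up this group.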
